A study of Gallus gallus with 2 samples.

Results

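All cells of the chick cerebellum at embryonic day 8 (E8) were compared with all cells at embryonic day 7 (E7), gene by gene. The cell table assigns 7648 cells to E7 and 2478 cells to E8, together 10126 of the 15190 cells of the series, which also covers E6 and E9. Both groups were wild-type embryos without treatment in the labels, and the labels give neither the strain nor the number of embryos. Dissected cerebella were pooled and dissociated, and polyadenylated RNA was counted with Evercode WT Mini, a kit that marks cells by splitting and pooling them over rounds of wells and marks each captured molecule with a unique molecular identifier (UMI). Each stage occupied 3 of the 12 wells of the first round, and the 2 sublibraries are later splits of the barcoded cells. A stage is therefore 1 pool, and its wells are technical splits of that pool. No test between stages was possible. The intervals given are exact 95% intervals that cover counting error only, and the values of the 3 wells show the technical spread.

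The cerebellum arises from 2 germinal zones. The ventricular zone gives rise to Purkinje cells, the inhibitory output neurons of the cortex, and to GABAergic interneurons and radial glia. The rhombic lip gives rise to excitatory neurons of the cerebellar nuclei and to granule cell precursors, which spread over the surface and divide in response to Sonic hedgehog from Purkinje cells. Newborn neurons switch on cytoskeletal, axon guidance and synaptic genes while they migrate. Blood vessels enter the neural tissue from a plexus around it, bringing endothelial cells, mural cells and blood.

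The E7 pool held more UMIs. Its cells had a median of 6047 UMIs against 3310 at E8, and its wells held 21365505 to 25589494 UMIs against 3162579 to 3633175. The largest E7 cell held 256122 UMIs. Across the 2 sublibraries, 744 E7 and E8 barcodes occurred in both, on 1488 cells, and these were kept as separate cells. Levels are given as CPM, the UMIs of a gene scaled to 1000000 UMIs of the stage, so cells rich in UMIs weigh more. A gene was taken as measured where the mean of its E7 and E8 levels reached 5 CPM, which 10819 of 30108 entries in the gene table did. A measured gene was called higher or lower where the ratio of the levels reached 2-fold and all 3 wells of a stage lay beyond all 3 wells of the other.

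Of the 10819 measured genes, 645 were called higher at E8, which is 5.96%, and 931 were called lower, which is 8.61%. Without a minimum fold, the wells of the stages lay apart for 25.5% of measured genes in the higher direction and 40.3% in the lower. The median log2 ratio of E8 over E7 over all measured genes was -0.16, and list medians below are to be read against that value. Counts of calls in a list are to be read against the shares of 5.96% higher and 8.61% lower. Both apply to the main setting only, and other settings have their own background over all genes. Scaling the levels so that this median is 0 turned the balance: the number of genes at least 2-fold higher at E8 became 919, and the number of genes at least 2-fold lower at E8 became 644. A symbol was given for 422 of the 645 higher genes and for 778 of the 931 lower genes, and the others carry an identifier alone. Just inside the higher calls was FTO, with 57.3 CPM at E7 and 115 CPM at E8, and just outside was PALM2AKAP2, with 37.1 and 74.1 CPM. Just inside the lower calls was RHOT2, with 31.1 and 15.5 CPM, and just outside was KSR2, with 69.8 and 34.9 CPM.

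**Figure D1:**
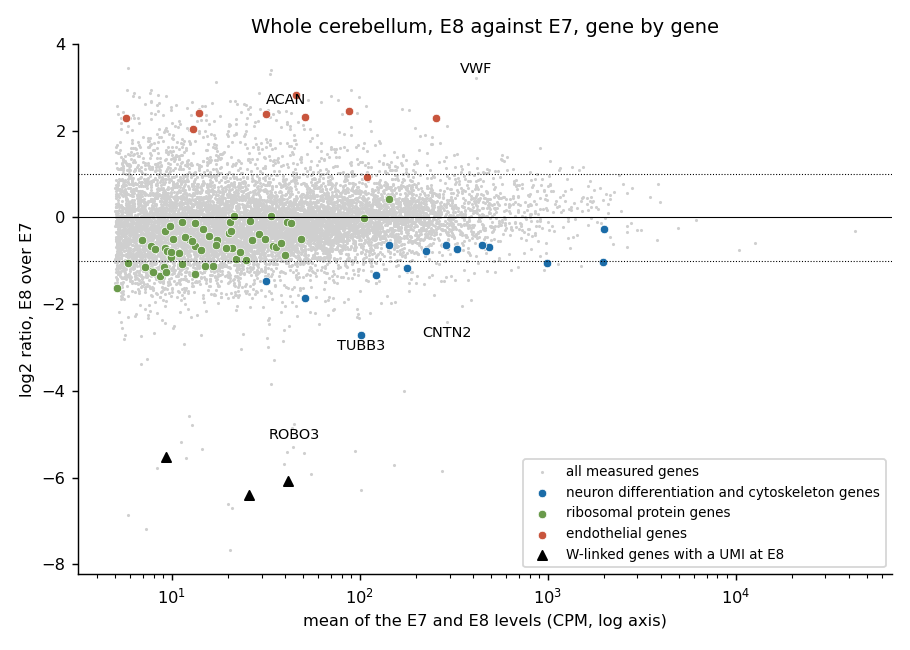
Each point is 1 of the 10819 measured genes, with the mean of its E7 and E8 levels in CPM on a log axis and its log2 ratio of E8 over E7 on the other axis; dotted lines mark 2-fold. A measured gene without a UMI at E7 or at E8, such as SMAD7B, has no finite ratio and is not drawn. Endothelial genes lie high, neuron differentiation and cytoskeleton genes lie low, and the W-linked genes with a UMI at E8 lie lowest among the coloured sets.

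E6 and E9 form another pair of pools that share no cells with E7 and E8, although all 4 went through the same kit. Of the 645 genes higher at E8 than at E7, 616 were measured in that pair too, and 472 of these (76.6%) were higher at E9 than at E6 under the same rule, while 1 was lower. Among all genes measured in both pairs, 11.4% were higher and 3.31% lower at E9. Those 472 genes are 39.5% of the genes higher at E9 that were measured in both pairs. Of the 931 genes lower at E8, 852 were measured in the other pair, of which 116 (13.6%) were lower at E9 than at E6 and 30 were higher. Those 116 genes are 33.4% of the genes lower at E9 that were measured in both pairs. The background of the E9 against E6 comparison alone was 11.9% higher and 3.6% lower of 10818 measured genes.

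The pools also differed in transcripts of the sex chromosomes. In birds, females carry 1 W chromosome beside 1 Z, and males carry 2 Z chromosomes. Of 9 entries that the RefSeq table places on W, HNRNPKL, UBAP2L2, SMAD7B and SPIN1L were high at E7 and near 0 at E8. UBAP2L2 stood at 82.8, 75.5 and 86.0 CPM in the E7 wells and at 0.95, 1.38 and 1.23 CPM in the E8 wells. HNRNPKL stood at 41.8, 53.2 and 55.6 CPM in the E7 wells and at 0.32, 0.28 and 1.23 CPM in the E8 wells. SMAD7B had 735 UMIs at E7 and 0 at E8, where the interval reaches 0.37 CPM. NEDD4L, at 315 CPM at E7 and 287 CPM at E8, and 2 entries named MBD2 are placed on W as well but did not follow those genes. HINTW had 5 UMIs at E7 and 0 at E8, and ENS-1 had 0 at both. These entries are placed on W too and are counted with the 4 symbols from here on. A UMI of the 4 symbols was found in 3535 of 7648 cells at E7 and in 22 of 2478 cells at E8. A further 18 identifiers without a symbol or a placement were chosen for a level at E8 at least 4 log2 units under that at E7, so their direction from E7 to E8 is fixed by the choice and their link to W is not known. Together the 4 symbols and 18 identifiers, called the low-at-E8 set here, summed to 2153 CPM at E7 and 41.3 CPM at E8, and to 33.4 CPM at E6 and 1079 CPM at E9, stages the choice did not use. A UMI of that set was found in 79.7% of E7 cells and in 13.7% of E8 cells, which the choice also favours.

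Genes of chromosome Z differed the other way. They took 4.80% of UMIs at E7, with wells from 4.67% to 4.98%, and 6.21% at E8, with wells from 6.13% to 6.31%. Of 440 measured Z genes 44 were called higher and 11 lower, with a median log2 ratio of 0.25. When only the 1553 E7 cells without a UMI of the low-at-E8 set were used, the median of the Z genes was -0.012 against -0.15 over all genes, with 23 called higher and 17 lower. In that setting, the number of genes at least 2-fold higher at E8 was 672 and the number of genes at least 2-fold lower at E8 was 845. A cell with few UMIs is likelier to lack those of the set, so the choice also favours shallow E7 cells. Depth was not matched, and all E8 cells were kept. The sex makeup of the pools is not given in the labels, and its part in any other difference was not tested.

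**Figure D2:**
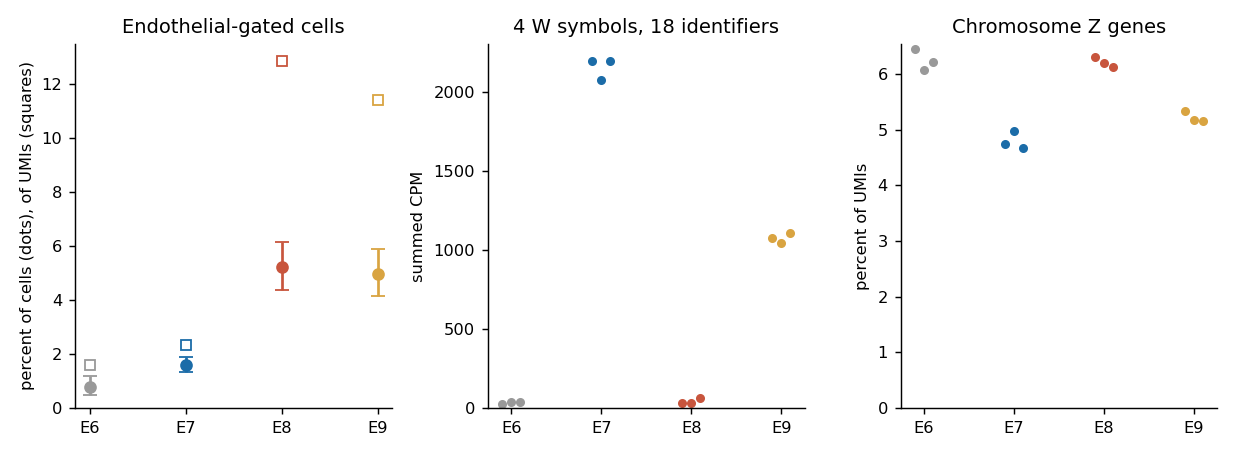
Left, percent of cells that passed the endothelial gate (dots with exact 95% intervals) and percent of all UMIs they held (squares) at E6 to E9; middle, summed CPM of the low-at-E8 set (4 W symbols and 18 identifiers) in each well; right, percent of UMIs from chromosome Z genes in each well. The gated share was 1.60% of cells at E7 and 5.21% at E8, and the low-at-E8 set was high at E7 and E9 and low at E6 and E8, of which the contrast of E7 with E8 was used to choose it.

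The ratio of E8 over E7 also moved with the length of the gene in the genome. Among measured genes with a RefSeq span, the median log2 ratio was -0.72 for 200 genes under 3 kb, -0.64 from 3 to 10 kb, -0.33 from 10 to 30 kb, -0.0044 from 30 to 100 kb, 0.32 from 100 to 300 kb and 0.51 for 208 genes over 300 kb. Of 1850 genes under 10 kb, 32 were called higher and 443 lower, while of 1193 genes of 100 kb or more, 155 were called higher and 11 lower. Genes of 100 kb or more took 38.3% to 39.6% of UMIs in the E7 wells and 45.6% to 47.5% in the E8 wells. The E6 wells held 41.7% to 43.6% and the E9 wells 41.2% to 43.1%, both between the other stages. To show how far this trend touches gene groups, many values are also given with each gene scaled by the median of its own span class. This alternative was chosen after seeing the data. That scaling gave 782 higher and 403 lower calls among the 10819 measured genes, whose median log2 ratio became 0.025. Values by span class are to be read against these, not against -0.16. The cause of the trend was not tested.

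**Figure D3:**
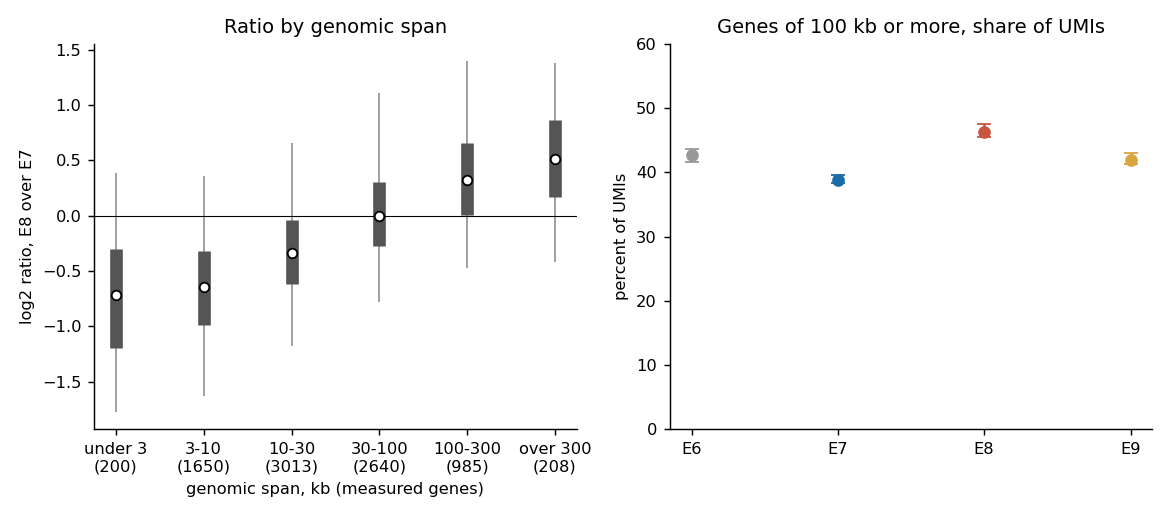
Left, log2 ratio of E8 over E7 by class of genomic span, with the median as a circle, the middle 50% of genes as a bar and the 5th to 95th percentiles as a line; right, percent of UMIs from genes of 100 kb or more at each stage, with the range of the 3 wells. The medians climb from -0.72 to 0.51 with span, and the long-gene share is lowest at E7 and highest at E8.

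Many of the highest ratios among genes with a symbol belonged to genes of blood vessels. The 223 higher genes with an identifier alone were not ranked. Among genes with a symbol and at least 20 CPM at the higher stage, the 15 genes with the highest ratio were VWF, ARHGAP31, SLC9A3, MMRN2, PTPRB, ERG, ABCB1, ADGRL4, VTG1, FLI1, EPAS1, ITPR3, APOLD1, RIN3 and ITPRIP. VWF encodes von Willebrand factor, the clotting glycoprotein stored by endothelial cells, and lies on GRCg7b chromosome 1 from 74643818 to 74782490. Its level was 70.6, 97.3 and 70.2 CPM in the E7 wells and 570, 819 and 837 CPM in the E8 wells. The wells did not overlap, and the E8 level was 9.33-fold the E7 level (log2 ratio 3.22, interval 3.17 to 3.27). At E9 it was 516 CPM, and at E6 62.2 CPM with 1 well at 150 CPM and the others at 10.3 and 17.8 CPM.

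PTPRB, an endothelial receptor phosphatase that acts on the angiopoietin receptor TEK, is on chromosome 1 from 35965448 to 36031456. It stood at 22.9, 27.2 and 25.1 CPM in the E7 wells and at 139, 200 and 176 CPM in the E8 wells, a ratio of 6.87-fold. ERG and FLI1 are transcription factors of endothelial identity. ERG went from 11.3 to 79.7 CPM (log2 ratio 2.82, interval 2.67 to 2.96) and FLI1 from 17.0 to 107 CPM (log2 ratio 2.66). EPAS1, the hypoxia-inducible factor HIF-2 alpha, had 31.0 CPM at E7 and 185 CPM at E8. ABCB1 encodes P-glycoprotein, an efflux transporter of the blood-brain barrier, and had 6.995 and 50.9 CPM. MMRN2, a protein of the vessel matrix, had 17.6 and 123 CPM. ADGRL4, an adhesion receptor of endothelial cells, had 20.5 and 134 CPM. VTG1, a vitellogenin gene that follows ADGRL4 on chromosome 8 (18326424 to 18369074 against 18217485 to 18292901), had 14.1 and 92.0 CPM.

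The endothelial list of markers had 9 measured members, of which 8 were called higher and 0 lower, and its median log2 ratio was 2.33. Its summed level ranged from 226 to 264 CPM over the E7 wells and from 799 to 1168 CPM over the E8 wells, and no member in the gene table was at 0. FLT1, a receptor of vascular endothelial growth factor, stood at 91.5, 92.5 and 75.4 CPM in the E7 wells and at 369, 481 and 415 CPM in the E8 wells. CDH5, the cadherin of endothelial junctions, had 27.1 CPM at E7 and 147 CPM at E8, and KDR, the main growth factor receptor of vessels, had 17.0 and 85.2 CPM. PECAM1, an adhesion protein of endothelium, had 74.96 and 144 CPM and missed the fold (log2 ratio 0.94). In cells outside the gate described next, PECAM1 stood at 64.7 CPM at E7 and 66.7 CPM at E8.

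Endothelial cells were gated as cells with at least 5 UMIs of the endothelial list that made up at least 0.2% of the UMIs of the cell, a gate set after seeing the data. It held 122 of 7648 cells at E7, or 1.60% (interval 1.33 to 1.90), and 129 of 2478 cells at E8, or 5.21% (interval 4.36 to 6.15). The well values ran from 1.18% to 1.81% at E7 and from 3.21% to 6.34% at E8, without overlap. The share was 0.76% at E6 and 4.97% at E9. Gated cells held 2.33% of all UMIs at E7 and 12.9% at E8. The 5 largest gated cells held 33.4% of gated UMIs at E7 and 26.4% at E8, and 56.4% and 37.2% of the gated VWF UMIs. VWF had a UMI in 26 gated cells at E7 and in 53 at E8. Doublets were not removed, and their part in these values was not tested. The size of the contrast depends on the gate. With 5 UMIs alone, the rule first planned, it held 3.69% of cells at E7 and 6.09% at E8. Those cells held 12.7% and 15.2% of all UMIs, with a median depth of 17785.5 and 4582 UMIs. All other gated values here use both rules.

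For the 15 genes with the highest ratio, the gated cells held 76.5% to 97.7% of the E8 UMIs. Within the gate their log2 ratios were smaller, from 0.24 to 0.86. Having been chosen for a high ratio over all cells, these genes were bound to favour positive values in the gate, and few cells carry their UMIs, so the ratios are a description alone. VWF was at 3128 CPM of gated UMIs at E7 and 5664 CPM at E8 (log2 ratio 0.86), ERG at 446 and 594 CPM (0.41), and EPAS1 at 995 and 1173 CPM (0.24). FLT1 was at 3230 and 3060 CPM within the gate (log2 ratio -0.078), CDH5 at 1104 and 1094 CPM (-0.013) and KDR at 596 and 639 CPM (0.10). Other genes of the endothelial list went either way within the gate: CLDN5, a tight junction protein, had a log2 ratio of -1.62, TIE1, a receptor kinase, -0.30, TEK 0.83 and PECAM1 0.39. All of these listed genes, ERG included, set the gate. With gated cells left out at both stages, 405 genes were called higher in place of 645, and the median log2 ratio over all genes was -0.21. Only 2 genes of the endothelial list were then measured, with a median of 0.83 that describes neither. FLT1 had 11.5 CPM at E7 and 34.9 CPM at E8, and PECAM1 64.7 and 66.7 CPM. VWF had a log2 ratio of 1.43. Over the 15 genes, the log2 ratios outside the gate ran from 0.43 for FLI1 to 2.66 for ADGRL4.

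**Figure D4:**
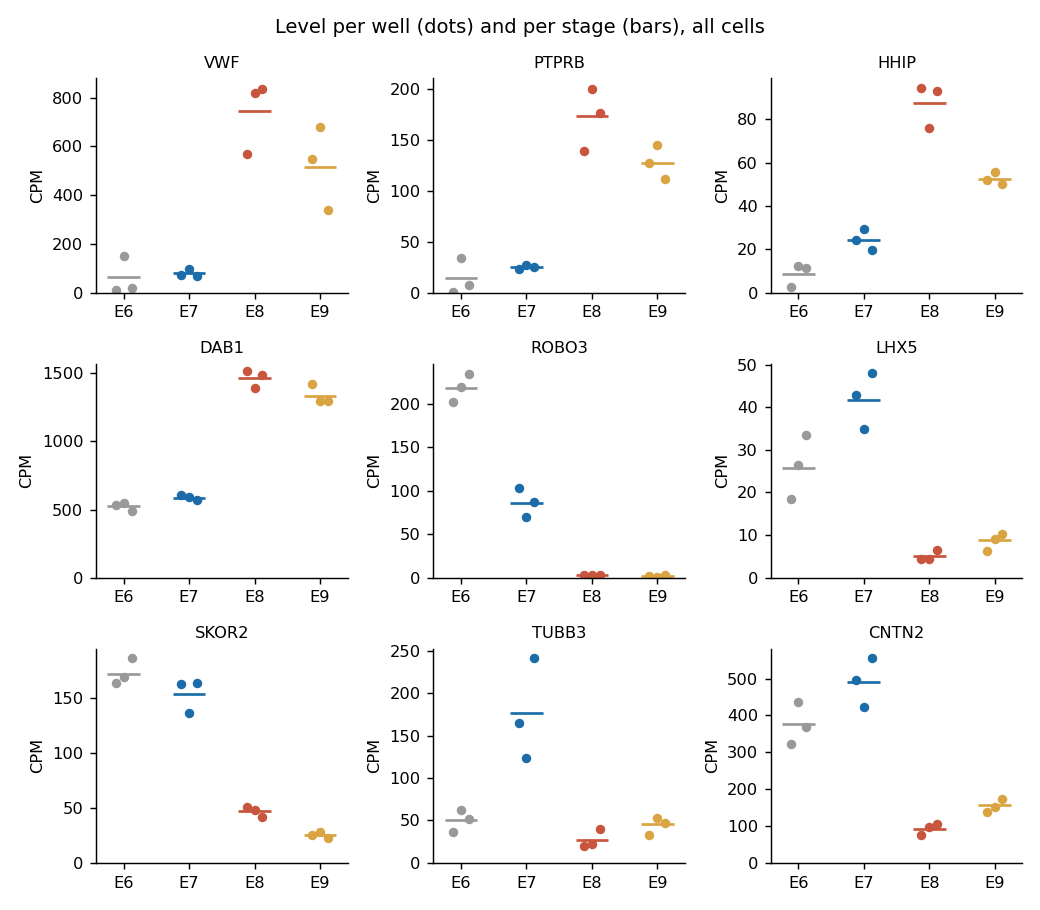
Level in CPM of VWF, PTPRB, HHIP, DAB1, ROBO3, LHX5, SKOR2, TUBB3 and CNTN2 in each well (dots) and in each stage (bars), E6 to E9, over all cells. The E7 and E8 wells do not overlap in any panel; VWF, PTPRB, HHIP and DAB1 are higher at E8 and the other genes lower.

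Genes of mural cells and the meninges were also higher. Of 6 measured members 4 were called higher and 0 lower, and the median log2 ratio was 1.46. With every cell weighed the same, or thinned to 1000 UMIs, 2 of 6 were called higher, with medians of 1.10 and 1.03. With E7 cells without a UMI of the W symbols 1 of 7 was called higher, with a median of 0.82. Without the third E8 well 5 of 7 were called higher. PDGFRB, the growth factor receptor of pericytes, stood at 30.05, 29.5 and 24.2 CPM in the E7 wells and at 74.3, 78.7 and 78.4 CPM in the E8 wells. ACTA2, the actin of smooth muscle, had 3.66 and 14.7 CPM, and KCNJ8, a potassium channel subunit of pericytes, had 4.93 and 14.0 CPM. The endothelial gate also took in cells with mural transcripts: it held 55.8% of PDGFRB UMIs at E7 and 73.1% at E8. Without gated cells only 3 members were measured, PDGFRB, COL1A2 and COL3A1, and their median was -0.086. This median rests on fewer members than that over all cells. Outside the gate PDGFRB still had 12.6 CPM at E7 and 23.9 CPM at E8. ACTA2 had 1.10 and 3.43 CPM there, KCNJ8 1.90 and 4.68 CPM and COL1A1 1.32 and 3.65 CPM. COL1A2, with 9.58 and 9.02 CPM, and COL3A1, with 14.5 and 12.6 CPM, were slightly lower at E8 there. COL1A2 and COL3A1, fibrillar collagens of mesenchyme, had log2 ratios of 0.08 and 0.18.

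Haemoglobin genes marked blood in the tissue. Of 3 measured erythroid genes 2 were called higher. After thinning to 1000 UMIs 0 of 4 were called, and without sublibrary 2 0 of 3. With every cell weighed the same 5 of 5 were called higher. HBBA, a beta globin, had 3.70, 1.06 and 12.8 CPM in the E7 wells and 20.2, 40.2 and 20.9 CPM in the E8 wells, and HBA1, an alpha globin, had 5.63 and 19.0 CPM. The third E7 well set much of the E7 level. Without it, the log2 ratio of HBBA was 3.62 in place of 2.23, and with cells thinned to 1000 UMIs it was 0.89. Microglial genes showed no call among 2 measured members, CSF1R at a log2 ratio of 0.63 and PTPRC at 0.24. The summed level of the microglial list was 16.5 to 24.4 CPM in the E7 wells and 16.8 to 30.7 CPM in the E8 wells, which overlap. Its median of 0.43 turned to -0.93 with cells of 2000 to 8000 UMIs and was negative also after thinning and without gated cells.

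In the oligodendrocyte lineage list, 2 of 3 measured members were called higher. MBP, which encodes a myelin protein and also has transcripts outside myelin, stood at 15.6, 13.4 and 10.9 CPM in the E7 wells and at 41.4, 46.8 and 40.3 CPM in the E8 wells, with 89.0 CPM at E9. CSPG4, the NG2 proteoglycan of oligodendrocyte precursors and pericytes, had 9.56 and 32.1 CPM. SOX10, which defines the lineage more narrowly, was near 0 with 8 UMIs at E8. Markers of midbrain, hindbrain and choroid plexus had no call among 2 measured members, and 2 of the list were at 0. Their summed level was 242 to 276 CPM in the E7 wells and 223 to 240 CPM in the E8 wells.

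Other genes were higher outside the gated cells, and they were chosen after their values were seen. ACAN encodes aggrecan, a proteoglycan of the extracellular matrix, on chromosome 10 from 13060505 to 13104655. In cells outside the gate it stood at 11.2, 11.9 and 14.7 CPM in the E7 wells and at 66.9, 82.8 and 83.4 CPM in the E8 wells, and over all cells it was 0.22 CPM at E6 and 114 CPM at E9. The gated cells held 0.87% of its E8 UMIs. SGCZ, a sarcoglycan, stood at 119, 113 and 106 CPM in the E7 wells and at 500, 575 and 542 CPM in the E8 wells outside the gate (log2 ratio 2.27). GPC6, a glypican that carries heparan sulfate, had 457 CPM at E7 and 1567 CPM at E8 there, and HS6ST3, an enzyme that sulfates heparan sulfate, had 45.2 and 203 CPM. MAN1A1, a mannosidase of the Golgi, had 86.1 and 334 CPM. Over all cells these were also called higher. SGCZ, GPC6, HS6ST3 and MAN1A1 each span more than 100 kb, the class in which the typical gene was higher, while ACAN spans 44.2 kb.

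Leaving out the W-linked genes and identifiers without a symbol, the lowest ratios were in genes of young neurons among others. The 15 genes were ROBO3, U4, ACHE, LHX5, PCDH8, TUBB3, SERTM1, ABCG4, PNOC, PGAM1, SKOR1, DPYSL5, CNTN2, SCRT2 and APC2. ROBO3, a receptor that governs when commissural axons cross the midline, lies on chromosome 24 from 304911 to 314482. It stood at 104, 70.1 and 87.6 CPM in the E7 wells and at 2.85, 3.58 and 3.07 CPM in the E8 wells, 27.1-fold lower (log2 ratio -4.76, interval -5.31 to -4.26). Its level was 218 CPM at E6 and 2.23 CPM at E9, so it was lower at each later stage. ACHE, the enzyme that breaks down acetylcholine, had 60.4, 56.5 and 73.2 CPM in the E7 wells and 8.54, 5.78 and 5.22 CPM in the E8 wells. SERTM1 had 20.4 and 2.69 CPM and SCRT2, a zinc finger repressor of newborn neurons, had 55.8 and 10.2 CPM. PNOC, the precursor of nociceptin, had 68.0 and 11.2 CPM, but its E6 level was 15.1 CPM and its E9 level 14.8 CPM, so E7 was the high stage.

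TUBB3, the neuronal beta tubulin on chromosome 11 from 18489877 to 18492525, stood at 165, 124 and 241 CPM in the E7 wells and at 19.6, 22.3 and 39.6 CPM in the E8 wells (log2 ratio -2.71). Its E6 and E9 levels were 50.2 and 45.4 CPM. PCDH8, a protocadherin on chromosome 1 from 165580780 to 165585023, had 68.6 CPM at E7 and 9.45 CPM at E8, with 39.8 CPM at E6 and 8.998 CPM at E9. DPYSL5, a collapsin response mediator of growth cones, had 102 and 18.5 CPM, and APC2, a neuronal regulator of microtubules, had 164 and 33.0 CPM. SKOR1, a corepressor related to SKOR2, had 71.1 and 12.4 CPM. PGAM1, a glycolytic enzyme, had 24.9 and 3.78 CPM, and ABCG4, a sterol transporter, had 41.4 and 6.47 CPM. The entry U4, a spliceosomal RNA, stood at 83.3, 7.35 and 104 CPM in the E7 wells and at 4.11, 7.16 and 1.54 CPM in the E8 wells, so that its middle E7 well barely cleared E8. The spans of these genes ran from 2.36 kb for PGAM1 to 23.6 kb for CNTN2 among those with a span. Scaled by span class, their log2 ratios still ran from -4.11 for ROBO3 to -1.80 for SCRT2.

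Purkinje cell genes were called lower more often than higher. Of 17 measured members 1 was called higher and 5 lower, with a median log2 ratio of -0.28. By span class the median was -0.69, with 0 higher and 5 lower calls. Summed over the list, the level was 15735 to 16300 CPM in the E7 wells and 13305 to 14313 CPM in the E8 wells. LHX5 and LHX1 are LIM homeodomain factors of newly formed Purkinje cells. LHX5, on chromosome 15 from 12575498 to 12583138, stood at 42.9, 34.8 and 48.0 CPM in the E7 wells and at 4.43, 4.40 and 6.45 CPM in the E8 wells (log2 ratio -3.04, interval -3.47 to -2.64). LHX1 stood at 121, 80.03 and 112 CPM in the E7 wells and at 23.4, 34.4 and 23.1 CPM in the E8 wells. SKOR2, a corepressor that marks Purkinje cells from early on, lies on chromosome Z from 2053790 to 2075802. It stood at 163, 137 and 164 CPM in the E7 wells and at 51.2, 48.4 and 42.1 CPM in the E8 wells, and at 173 CPM at E6 and 25.4 CPM at E9. A level summed over all cells does not separate fewer cells of a type from less RNA in each.

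The other members called lower were EBF2, a helix-loop-helix factor of Purkinje subsets, at 2053 CPM at E7 and 946 CPM at E8, and FOXP4, a forkhead factor, at 161 and 68.0 CPM. DAB1, the adaptor that carries the Reelin signal in migrating Purkinje cells, was the member called higher. It lies on chromosome 8 from 25533715 to 25906038 and stood at 606, 589 and 573 CPM in the E7 wells and at 1520, 1392 and 1486 CPM in the E8 wells (log2 ratio 1.31, interval 1.29 to 1.34). By its span class, over 300 kb, its log2 ratio was 0.80. ESRRG, an orphan nuclear receptor, had 522 and 884 CPM (log2 ratio 0.76), and RORA, a nuclear receptor needed for their maturation, had 1876 and 2318 CPM (0.31). FOXP2 had 3276 CPM at E7 and 2692 CPM at E8 (log2 ratio -0.28). CALB1, which encodes calbindin, a mature marker in many species, had 18 UMIs at E7 and 1 at E8 and was not measured.

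Granule lineage genes were lower in 5 of 15 measured members and higher in 1, with a median log2 ratio of -0.71. By span class the median was -0.063, with 0 higher and 2 lower calls. The summed level of the list went the other way, from 1915 to 2117 CPM over the E7 wells and from 2364 to 2541 CPM over the E8 wells. SEMA6A held most of the E8 sum, and its own rise, given below, was larger than that of the sum. The sum therefore does not describe the other members. CNTN2, the adhesion protein TAG-1 of granule cells that have left the cycle, lies on chromosome 26 from 2015205 to 2038846. It stood at 497, 424 and 557 CPM in the E7 wells and at 74.6, 96.3 and 106 CPM in the E8 wells (log2 ratio -2.41, interval -2.50 to -2.31). NHLH2 and NHLH1, helix-loop-helix factors of newborn neurons, had 116 and 26.7 CPM and 52.4 and 17.9 CPM. ZIC1, a zinc finger factor of granule precursors, stood at 163, 114 and 141 CPM in the E7 wells and at 50.9, 59.2 and 63.9 CPM in the E8 wells.

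SEMA6A, a semaphorin that granule cells use in migration, lies on chromosome Z and was the member called higher. It stood at 952, 949 and 905 CPM in the E7 wells and at 1934, 1967 and 2045 CPM in the E8 wells, and its log2 ratio of 1.08 was 0.76 by span class. When only E7 cells without a UMI of the W symbols, or of the low-at-E8 set, were used, the granule list had 0 higher calls. SEMA6A was therefore not called higher in those settings. PAX6, a paired homeodomain factor of the rhombic lip, had 42.5 and 51.7 CPM, with wells of 40.4 to 45.0 CPM and 47.9 to 59.4 CPM, and a log2 ratio of 0.28. Its level was 15.5 CPM at E6 and 85.4 CPM at E9. NEUROD1, a factor of granule differentiation, had 26.7 and 18.3 CPM (log2 ratio -0.54, or 0.17 by span class). BARHL1, a homeodomain factor of the granule lineage, had 4.998 and 5.87 CPM.

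GABAergic interneuron genes were lower in 5 of 8 measured members and higher in 0, with a median log2 ratio of -1.04, or -0.95 by span class. GAD2 and GAD1 make GABA and are used by Purkinje cells too. GAD2 stood at 573, 574 and 566 CPM in the E7 wells and at 288, 269 and 278 CPM in the E8 wells, and GAD1 had 163 and 79.2 CPM. SLC32A1, which loads GABA into vesicles, had 19.0 and 6.67 CPM. TFAP2A and TFAP2B, AP-2 factors of the GABAergic lineage, had 96.0 and 34.3 CPM and 288 and 113 CPM. PAX2, the marker of interneuron precursors, was not called, with wells of 174 to 220 CPM at E7 and 227 to 265 CPM at E8 (log2 ratio 0.30).

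Among glutamatergic nuclear genes, 1 of 5 measured members was called lower. LHX9, a LIM homeodomain factor of early nuclear neurons, stood at 11.05, 12.1 and 14.1 CPM in the E7 wells and at 0.32, 2.20 and 0.92 CPM in the E8 wells, after 69.8 CPM at E6. SLC17A6, the vesicular glutamate transporter, had 68.2 and 83.5 CPM with overlapping wells. The list's median of 0.011 turned negative without sublibrary 1, without the third E8 well and by span class. Of 3 measured genes of ventricular zone progenitors, DLL4 was called higher, but this Notch ligand is also made by endothelial cells, and the gated cells held 94.8% of its E8 UMIs. PRDM13, a factor that specifies the GABAergic lineage, had a log2 ratio of -0.51, and the median of the list, also -0.51, was 0.13 by span class.

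Radial glia and progenitor genes were lower in 2 of 12 measured members and higher in 0. That is 16.7% lower, against 8.61% lower and 5.96% higher over all measured genes, in a list of few members. SOX9, a factor of glial progenitors, had 25.1 CPM at E7 and 9.25 CPM at E8. TNC, the matrix protein tenascin C, stood at 867, 906 and 883 CPM in the E7 wells and at 391, 361 and 403 CPM in the E8 wells. FABP7, the brain lipid-binding protein of radial glia, had 136 and 103 CPM, SOX2 15.8 and 16.9 CPM, and PTPRZ1, a receptor phosphatase of glia, 1034 and 1627 CPM (log2 ratio 0.65). The median of the list was -0.37 and turned to 0.099 by span class.

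Cell division genes had 0 higher and 1 lower call among 18 measured members, with a median log2 ratio of 0.10. The median was -0.026 with E7 cells without a UMI of the low-at-E8 set. By span class it was 0.43, with 2 higher and 0 lower calls. With cells of 2000 to 8000 UMIs it was 0.48, with 1 higher and 1 lower call. TOP2A, a topoisomerase of cycling cells, had 146 and 138 CPM, and MCM4, a subunit of the replicative helicase, had 24.3 and 11.3 CPM. Genes of the hedgehog pathway, on which granule precursors depend, were higher in 3 of 14 measured members and lower in 0, with a median of 0.20. By span class the median was 0.047, with 4 higher and 0 lower calls. With E7 cells without a UMI of the W symbols, 2 of 15 measured members were called higher and 0 lower. With E7 cells without a UMI of the low-at-E8 set, 2 of 15 were called higher and 1 lower. The higher calls were also 2 without sublibrary 1, without the third E7 well and without the first E8 well. HHIP, which binds hedgehog ligands and is itself a target of the pathway, stood at 24.2, 29.3 and 19.6 CPM in the E7 wells and at 94.2, 76.0 and 93.1 CPM in the E8 wells. The log2 ratio of HHIP was 1.83, or 1.24 with E7 cells without UMIs of the low-at-E8 set. PTCH1, the receptor and target, stood at 115, 125 and 99.5 CPM in the E7 wells and at 245, 218 and 223 CPM in the E8 wells, and CCND2, a cyclin that drives division, had 73.0 and 180 CPM. GLI1, another target of the pathway, had 9.33 and 6.37 CPM, and SHH, the ligand, had 6.16 and 8.76 CPM, and neither was called.

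Notch pathway genes had 1 higher and 4 lower calls among 15 measured entries, with a median of -0.43, and 1 higher and 0 lower by span class. The genes called lower included HES6, a factor of newborn neurons whose symbol has 2 entries in the gene table, at 15.2 and 4.88 CPM and at 15.3 and 4.68 CPM. The reads of these entries may be shared between near-identical copies, so each value is uncertain. DTX4, a ubiquitin ligase of the deltex family, had 22.9 and 9.15 CPM. The gene called higher was DLL4, named above with the vessel genes.

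**Figure D5:**
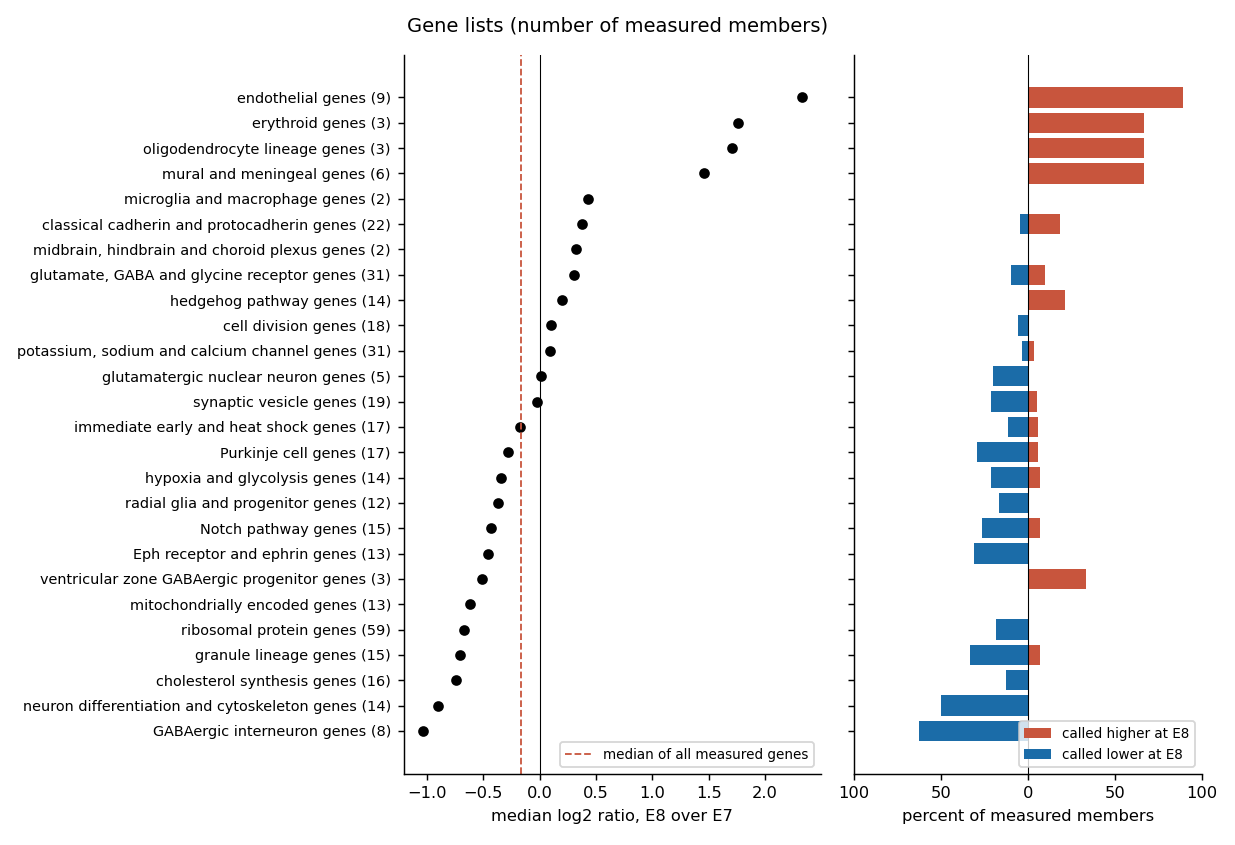
Left, median log2 ratio of E8 over E7 of the measured members of each list, with their number in brackets and a dashed line at the median of all measured genes; right, percent of measured members called higher (to the right) or lower (to the left). Endothelial genes lie at 2.33, and GABAergic interneuron genes and neuron differentiation and cytoskeleton genes lie at -1.04 and -0.90.

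The neuron differentiation and cytoskeleton list was lower in 7 of 14 measured members and higher in 0, with a median log2 ratio of -0.90. By span class it was -0.80 with 6 lower calls. MAP1B, a microtubule protein of growing axons, stood at 2701, 2667 and 2522 CPM in the E7 wells and at 1320, 1305 and 1269 CPM in the E8 wells. NEFM and NEFL, neurofilament subunits, had 80.2 and 22.3 CPM and 46.6 and 16.8 CPM. NCAM1, the neural cell adhesion molecule, had 1336 and 644 CPM, MAPT, which encodes tau, had 245 and 110 CPM, and DPYSL3 had 176 and 69.7 CPM. MAP2, a microtubule protein of dendrites, had 2160 and 1806 CPM and was not called, and STMN2, a growth cone protein, missed the fold with 286 and 166 CPM.

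Synaptic vesicle genes moved both ways, with 1 higher and 4 lower calls among 19 measured members. CPLX1, a complexin that clamps vesicle fusion, lies on chromosome Z and stood at 30.7, 36.2 and 37.6 CPM in the E7 wells and at 102, 116 and 94.97 CPM in the E8 wells. Its relative CPLX2 stood at 30.6, 22.6 and 31.5 CPM in the E7 wells and at 6.64, 6.61 and 11.99 CPM in the E8 wells, so these complexins differed in direction. RAB3A, a small GTPase of vesicles, had 13.9 and 4.48 CPM, SV2A, a vesicle glycoprotein, had 23.6 and 10.2 CPM, and SYT11, a synaptotagmin, had 113 and 54.0 CPM. SYT1, the calcium sensor of release, had 1716 and 1691 CPM. The list's median of -0.022 became 0.15 when all genes were scaled to a median of 0, and its sign turned in 6 settings in all.

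Receptors for glutamate, GABA and glycine had 3 higher and 3 lower calls among 31 measured members. Each is 9.68%, near the 5.96% higher and 8.61% lower of all measured genes. The median log2 ratio of the list was 0.31, or -0.015 by span class. GRID1, a delta glutamate receptor, stood at 171, 176 and 169 CPM in the E7 wells and at 491, 456 and 448 CPM in the E8 wells, and 611 CPM at E9. GABRB2, a subunit of the GABA-A receptor, had 92.5 and 246 CPM, and GRM8, a metabotropic receptor, had 58.5 and 141 CPM. GLRA1, a glycine receptor subunit, stood at 42.7, 37.3 and 46.6 CPM in the E7 wells and at 11.7, 10.5 and 7.99 CPM in the E8 wells. GRM4, a metabotropic receptor of granule cells, had 25.9 and 9.06 CPM, and GRIN1, the shared subunit of NMDA receptors, had 141 and 67.0 CPM. GRM8, GABRB2 and GRID1 span 324, 336 and 523 kb, and by span class 0 receptors were called higher and 4 lower.

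Among potassium, sodium and calcium channels, 1 of 31 measured members was called higher and 1 lower, with a median of 0.091, or -0.092 by span class. KCNQ5, a channel of the M current, had 7.12 and 26.6 CPM. KCNA2, a channel of axons, had 29.9 and 8.76 CPM. Classical cadherins and protocadherins, which sort neurons into clusters, were higher in 4 of 22 measured members and lower in 1, with a median of 0.38 and, by span class, 0.054. CDH20 had 20.6 and 65.0 CPM and went on to 109 CPM at E9. CDH12 stood at 115, 118 and 116 CPM in the E7 wells and at 270, 271 and 281 CPM in the E8 wells. CDH18 had 102 and 234 CPM and PCDH15 had 181 and 397 CPM, while PCDH8 was the member called lower. PCDH10, a protocadherin of Purkinje subsets, had 75.9 and 99.9 CPM.

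Eph receptors and ephrins, which guide axons by contact, were lower in 4 of 13 measured members and higher in 0, with a median of -0.46 and, by span class, -0.48. EPHA5 stood at 1351, 1327 and 1356 CPM in the E7 wells and at 616, 569 and 549 CPM in the E8 wells, after 2677 CPM at E6. EPHB3 had 62.7 and 20.2 CPM, EFNA2 131 and 50.2 CPM, and EFNB1 145 and 62.8 CPM. EPHA7 and EFNA5 went the other way without reaching 2-fold, with 357 and 669 CPM and with 690 and 1057 CPM.

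Ribosomal protein genes had 0 higher and 11 lower calls among 59 measured members and a median log2 ratio of -0.67. These genes are short, with a median span of 3.35 kb, and by span class their median was -0.0020 with 1 higher and 0 lower calls. They count in the span classes that scale them, so part of that shift is built in. RPL7 went against the group, with 123 and 165 CPM. The 13 mitochondrially encoded genes had 0 calls and a median of -0.62, which turned to 0.096 by span class. The 200 genes under 3 kb that set this scaling include mitochondrial genes, so part of that shift is built in. COX1, a subunit of cytochrome oxidase, stood at 1351, 639 and 941 CPM in the E7 wells and at 491, 620 and 497 CPM in the E8 wells, so that 1 E7 well lay near E8. Copies of mitochondrial genes in the nuclear genome can take part of such reads.

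Cholesterol synthesis genes were lower in 2 of 16 measured members, or 12.5%, near the 8.61% of all measured genes. These were LSS with 37.2 and 16.2 CPM and FDPS with 15.1 and 4.88 CPM. The median of the cholesterol list was -0.74, or -0.24 by span class. Among hypoxia and glycolysis genes, GAPDH with 66.4 and 19.0 CPM, TPI1 with 14.3 and 4.88 CPM and ALDOC with 25.4 and 9.45 CPM were called lower. SLC2A1, the glucose transporter of the blood-brain barrier, was called higher with 24.9 and 93.3 CPM. The gated cells held 93.5% of its E8 UMIs, and without them its log2 ratio of 1.91 turned to -0.46. The median of the list was -0.34, or 0.0053 by span class.

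Immediate early and heat shock genes, which respond to handling of tissue, had 1 higher and 2 lower calls among 17 measured members and a median of -0.18. This sign turned without the third E7 well and by span class. HSPA8 and HSP90AA1, chaperones, had 214 and 99.1 CPM and 248 and 124 CPM. ATF3, a stress factor, had 9.86 and 24.8 CPM, and the log2 ratio of ATF3 (ENSGALG00010019307), 1.33, turned to -0.082 without gated cells.

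To compare how many cells held a UMI of a marker, each cell was thinned to 1000 UMIs, which left out 0 cells at E7 and 101 at E8. SKOR2 was found in 13.6% of E7 cells (interval 12.9 to 14.4) and 3.83% of E8 cells (interval 3.09 to 4.68). Unthinned, the shares of SKOR2 were 45.3% and 11.02%. In endothelial-gated cells, which should lack it, the thinned share of SKOR2 was 0.82% at E7 and 0 of 127 cells at E8, where the interval reaches 2.86%. Without thinning, its gated share was 11.5% at E7 and 0.78% at E8, so the unthinned background was larger at E7. The median depth of gated cells was 6456.5 UMIs at E7 and 4352 at E8 among the cells kept for thinning, against 6047 and 3406 in all cells. LHX1 was found in 9.98% and 2.36% of thinned cells, with 1.64% and 0 in gated cells. Its gated shares were 7.5% and 0 when thinned to 2000 UMIs, and 13.9% and 0.78% without thinning. These shares moved in the same direction as the levels.

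PAX6 was found in 3.58% of thinned E7 cells (interval 3.18 to 4.02) and 5.76% of thinned E8 cells (interval 4.86 to 6.78), with 0 in gated cells of either stage. Unthinned, where E7 cells are deeper, the shares of PAX6 were 19.7% and 15.1%, the opposite order. ZIC1 was found in 11.8% and 5.26% of thinned cells, and in 9.84% and 7.09% of gated cells. Those gated shares are above the ones of SKOR2 and LHX1 at the same thinning. At E8 the gated share of ZIC1 (interval 3.29 to 13.03) was not below its share in all cells (interval 4.40 to 6.23). The gate also holds cells with mural transcripts, and which gated cells carried ZIC1 was not tested. Whether its gated shares are background therefore cannot be told. NEUROD1 was found in 2.46% and 1.22% of thinned cells, with 1.64% at E7 and 0 of 127 cells at E8 in the gate. Thinned to 2000 UMIs, NEUROD1 was found in 4.25% (interval 3.80 to 4.73) and 3.65% (interval 2.88 to 4.57) of cells, which overlap. Unthinned, ZIC1 was found in 48.4% and 17.8% of cells and NEUROD1 in 14.3% and 6.17%. FABP7 was found in 9.62% and 9.30% of thinned cells, with overlapping intervals, and in 0.82% and 1.57% of gated cells. SOX2 was found in 1.41% and 2.15% of thinned cells and TBR1, a factor of nuclear neurons, in 0.39% and 0.084%, with 0 in gated cells for both genes. Unthinned, the shares were 33.8% and 22.03% for FABP7, 9.68% and 5.53% for SOX2, and 2.81% and 0.36% for TBR1.

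TOP2A was found in 9.66% and 10.5% of thinned cells with overlapping intervals, and in 14.3% (interval 13.5 to 15.1) and 18.5% (interval 16.8 to 20.2) after thinning to 2000 UMIs, which do not overlap. Its level was slightly lower at E8, the opposite direction, so no order is read from these shares. Dividing endothelial cells also express it, so its gated shares of 18.03% and 14.96% are no background. PAX2 was found in 10.996% and 10.3% of thinned cells, with 3.28% and 4.72% in gated cells. Among cells with a PAX2 UMI, the mean was 1.99 UMIs at E7 and 2.80 at E8. Unthinned, the shares were 26.7% and 23.1% for TOP2A and 26.3% and 15.5% for PAX2.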

How the data were processed

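The authors deposited 1 matrix of UMI counts per gene and cell, with a cell table and a gene table, for both sublibraries. The submitters' processing notes name Cell Ranger, Seurat and the build GRCg7b without saying what each was used for, and how cells were called is not stated. The stage and first-round well of each cell came from the deposited cell table, a label of another kind than a measurement, and matrix sums equalled its transcript counts in 100% of cells.

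Counts were summed over all cells per well and stage and divided by their UMIs (CPM). No cell was left out and doublets were not removed. Ratios have exact intervals from the binomial split of UMIs, and shares have exact 95% binomial (Clopper-Pearson) intervals. Symbols matched 12863 entries and 8696 measured genes to RefSeq (GRCg7b), which gave coordinates and spans. Genes were named by rule: the 15 highest and 15 lowest ratios of at least 20 CPM with a symbol and off W, ranked on log2 of CPM plus 1, and the 2 members at each end of 24 lists. Of the lists, other members are given where they were called or are standard markers. Lists and members were chosen with earlier results of these data known. Alternatives covered scaling (also TMM, edgeR 4.0.16), thinning, filters, fold, wells, sublibraries and subsets of cells. Tables were made with pandas 2.3.3 and numpy 2.4.6 under Python 3.11.15, intervals with scipy 1.17.1 and figures with matplotlib 3.10.9. No test was run because a stage is 1 pool. Some named items are not reported here.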

Additional observations from a re-analysis of the deposited data

How the results depend on the processing

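The number of genes at least 2-fold higher at E8 (645) became 313 with a minimum of 20 CPM, 1737 with no filter on the level and 1401 at 1.5-fold. The number of genes at least 2-fold lower at E8 (931) became 377, 2961 and 2430 in the same settings. Of the alternatives chosen after seeing the data, leaving out endothelial-gated cells gave 405 higher and 1163 lower, and scaling by span class gave 782 higher and 403 lower. Cells of 2000 to 8000 UMIs gave 595 and 1052, and E7 cells without a UMI of the low-at-E8 set gave 672 and 845, both also chosen after seeing the data. Leaving out 1 well or 1 sublibrary at a time gave 644 to 690 higher and 862 to 1153 lower. Giving every cell the same weight gave 577 and 1088, thinning 580 and 1136, TMM scaling 642 and 942, and dropping the rule on wells 652 and 972. E7 cells without a UMI of the 4 W symbols gave 601 and 879. Without gated cells the log2 ratio of SOX18 turned to -0.0019, that of SLC2A1 to -0.46 and the log2 ratio of ATF3 (ENSGALG00010019307) to -0.082. ATF3 also turned to -0.56 with cells of 2000 to 8000 UMIs, and the cause was not tested. No paired analysis was possible because the labels give 1 group and the numbers of the wells do not pair stages. Depth limits genes under 5 CPM, most of all at E8, and pool and stage cannot be told apart in any setting.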

Other observations

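The ratio of E8 over E7 differed between large and small chromosomes. Measured genes of chromosomes 1 to 5 had a median log2 ratio of -0.067, with 222 called higher and 201 lower of 4008. Genes of chromosomes 11 to 39, which are small and dense in short genes, had a median of -0.47, with 73 called higher and 427 lower of 2797. Within a class of span the order was the same: from 3 to 10 kb the medians were -0.56 and -0.75, from 30 to 100 kb 0.063 and -0.22, and over 300 kb 0.57 and 0.14. Chromosome Z genes of 100 to 300 kb had a median of 0.68, with 20 of 83 called higher and 0 lower. The share of UMIs from chromosomes 11 to 39 was 20.9% at E7 and 16.9% at E8, against 18.9% at E6 and 18.2% at E9.

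Reads per UMI were 1.188 at E7 and 1.186 at E8.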
